A study of Mus musculus with 9 samples.

Results

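Of the 8280 H3K27me3 sites listed in control mouse embryonic stem cells, 974 were overlapped by exactly 1 Phf19 site. These 974 control domains, 11.8% of the list (95% interval 11.1 to 12.5), are described here: where Phf19 lay in them, how far it was from Suz12, and which stretches were still listed in cells depleted of Phf19. Domains were chosen by overlap alone, of at least 1 base, so the presence and number of Phf19 sites are not results. All cells were E14Tg2A, a feeder-free line of mouse embryonic stem cells kept in serum with leukemia inhibitory factor. Chromatin immunoprecipitation with sequencing (ChIP-seq) gave 4 site lists. The Phf19 list (4633 sites, those shared by 2 replicates) and the Suz12 list (8054 sites, 1 library) come from wild type cells. The H3K27me3 lists come from 1 library each: cells with a random hairpin (shRd, also labelled wild type) and Phf19-depleted cells with a hairpin against Phf19 (shPhf19, 1180 sites). How far Phf19 fell, and whether the hairpin cells were clones or pools, was not among the details given. The labels give different catalogue numbers, 07449 and 07450, for the H3K27me3 antibodies of shRd and shPhf19, so a difference between those lists cannot be told apart from a difference between antibodies. The lists hold positions only, without counts or heights. Read depth is therefore unknown, and the conditions have no replicate check.

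Polycomb repressive complex 2 (PRC2) methylates lysine 27 of histone H3, and the trimethylated form, H3K27me3, marks silenced developmental genes in embryonic stem cells. Suz12 is a core subunit of that complex, needed for its stability and activity. Phf19 is a Polycomb-like accessory subunit whose Tudor domain binds histone H3 methylated at lysine 36, a modification of transcribed chromatin. H3K27me3 commonly spreads over a broad domain around the place where PRC2 is held.

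The 974 domains were 931 to 11808 bp wide, with a median of 3369 bp and quartiles of 2321 and 4582.5 bp. They made up 54.8% (52.5 to 57.2) of the 1776 control domains with any Phf19 site. A further 447 domains held 2 Phf19 sites, 165 held 3 and 190 held 4 or more. The median width was 5596.5 bp in those 802 domains with several sites and 2193 bp in the 4029 domains with Suz12 and no Phf19. Width is tied to how the domains were chosen, since a wider domain has room for more sites. The single Phf19 site was narrow, with a median of 527 bp, and took up a median of 15.6% of the domain's length. It lay wholly inside the domain in 760 cases (78.0%, 75.3 to 80.6) and also touched another control domain in 88. The next Phf19 site on the chromosome was usually distant, at a median of 129553 bp, and was within 5 kb in 176 cases (18.1%).

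At the limit of the overlap rule, 30 domains shared fewer than 100 bases with their Phf19 site, the smallest overlap being 9 bases. Their median width was 1920 bp and 0 of 30 were still listed in shPhf19 cells, which allows a share of up to 11.6% by the exact interval. Just outside it lay 48 control domains without Phf19 that had a Phf19 site within 100 bases. Their median width was 1801 bp and 3 of the 48 were still listed. Over all control domains the share still listed was 8.96%, and it was low at such widths. At 1879 to 2174 bp it was 2 of 65 with 1 Phf19 site and 12 of 478 with Suz12 and no Phf19. At 1636 to 1878 bp these were 2 of 53 and 4 of 455.

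Suz12 overlapped 937 of the 974 domains (96.2%, 94.8 to 97.3), against 69.6% of all control domains. A single Suz12 site was present in 821 of them, 2 in 95, 3 in 20 and 4 in 1. Suz12 overlap was 34.3 percentage points more frequent than in domains without Phf19 (61.9%; interval of the difference 32.4 to 35.8). Against domains with several Phf19 sites (99.8%) the difference was −3.55 points (−4.95 to −2.33). When all control domains were cut into 5 equal width classes, the difference from domains without Phf19 was 47.1 points (33.8 to 54.2) in the narrowest class and 16.3 points (13.4 to 19.2) in the widest. The 37 domains without a Suz12 site had small widths (median 1807 bp), as did the Phf19 sites in them (median 392 bp).

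Phf19 lay nearer to the centre of the domain than to its edge more often than an even spread would give. Its position is expressed as a relative offset, the distance between the Phf19 and domain centres divided by the distance from domain centre to edge, so that 0 is the centre and 1 the edge. The median offset was 0.392, with quartiles of 0.166 and 0.722. In successive steps of 0.2 from centre to edge the domains numbered 288, 205, 157, 132 and 105, or 29.6%, 21.0%, 16.1%, 13.6% and 10.8% of all. In the remaining 87 (8.93%) the Phf19 centre lay past the edge. An even spread would place 20% in each step. Offsets of 0.5 or less, called inner below, were found in 572 domains (58.7%, 55.6 to 61.8), where an even spread gives 50%. The other 402 are called outer. In base pairs, the Phf19 centre was a median of 618.5 bp from the domain centre and 922 bp from the nearest edge.

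**Figure D1:**
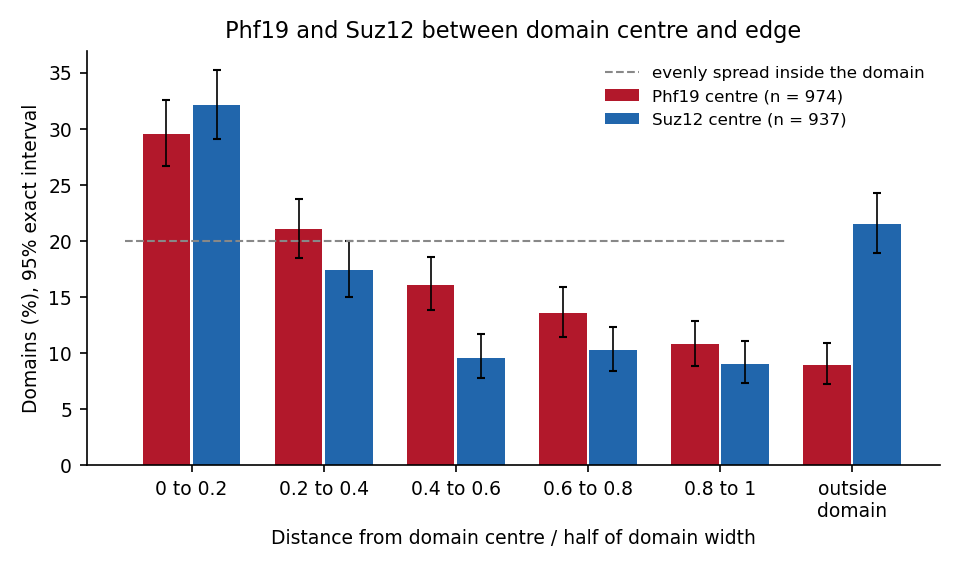
Share of control domains (%) by the relative offset of the Phf19 centre (974 domains) and of the Suz12 centre (937 domains), in steps of 0.2 from domain centre to edge, with a last step for centres past the edge; error bars are exact 95% intervals and the line marks the 20% of an even spread. Both are highest in the innermost step, and past the edge the shares are 8.93% for Phf19 and 21.6% for Suz12.

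Suz12 too lay most often in the innermost step. For each domain the Suz12 site with the largest overlap was used, without regard to Phf19. Its centre was in the innermost step in 301 of 937 domains (32.1%), was inner in 509 (54.3%, 51.1 to 57.5) and lay past the edge in 202 (21.6%). Across all control domains with Suz12 the inner share was 45.9%, and in those without Phf19 it was 40.5%, a difference of 13.9 points (10.3 to 17.4). The inner share of Suz12 moved with domain width in both groups. In 4 width groups set by the quartiles of the 974 domains it was 21.0%, 41.2%, 65.7% and 85.2% from narrow to wide. In the domains without Phf19 cut at the same widths it was 21.3%, 49.9%, 78.7% and 82.4%, and the differences were −0.224 (−5.46 to 5.95), −8.68 (−15.5 to −1.63), −13.0 (−20.0 to −6.24) and 2.77 points (−3.68 to 9.09). At like width, Suz12 was thus less often inner in the 2 middle groups of domains with Phf19, and no difference was resolved in the narrowest and widest. Whether the Suz12 site also overlapped another control domain, which differed between the groups, was not held in this comparison.

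The inner position of Phf19 was a property of the wider domains. From the narrowest to the widest of those 4 groups, the inner share of Phf19 was 34.8%, 47.5%, 70.5% and 82.0%, and the median offset was 0.647, 0.521, 0.288 and 0.205. In the 5 width classes of all control domains, the inner share was 35.7%, 34.7%, 36.4%, 55.9% and 78.9%. Over the 4 groups the median distance to the domain centre was 589, 721, 558 and 639 bp, and that to the nearest edge was 301, 644, 1384 and 2239 bp. In domains with several Phf19 sites, 1577 of 2466 site positions were inner (63.9%), and the difference for domains with 1 site was −5.22 points (−8.86 to −1.62). Width was not held in that comparison, and the domains with several sites were wider, with a median of 5596.5 bp. Each of them also gave more than 1 position, and these are not independent.

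The positions were also split by whether the Suz12 site reached into a second control domain. In 319 of the 937 domains (34.0%, 31.0 to 37.2) the Suz12 site with the largest overlap also overlapped another control domain. The share was 31.9% over all control domains with Suz12. The 34.0% differed by 2.37 points (interval −0.926 to 5.78) from the share in domains with Suz12 and no Phf19, before width was held. Within the 4 width groups, the counts shared were 122 of 214, 103 of 238, 65 of 242 and 29 of 243 from narrow to wide. For domains with Suz12 and no Phf19 they were 886 of 2188, 310 of 1019, 64 of 549 and 16 of 273. At like width the share was thus higher with 1 Phf19 site in each group, a difference that was not tested. Further Suz12 sites in a domain were not considered, so the other 618 can include domains where a further site reached a neighbour. Where the Suz12 site lay in 1 domain alone, Phf19 was inner in 474 of 618 (76.7%), with a median offset of 0.246. Where it was shared, Phf19 was inner in 83 of 319 (26.0%), with a median offset of 0.717. The difference was 50.7 points (interval 44.5 to 56.2). The median domain width was 2655 bp with a shared Suz12 site and 3869 bp without. Within the 4 width groups the inner share was 44.6%, 63.7%, 87.0% and 90.2% where Suz12 was in 1 domain, and 33 of 122, 28 of 103, 16 of 65 and 6 of 29 where it was shared. The inner share climbed with width in the domains that had their Suz12 site to themselves and not in those that shared it. The median distance from Phf19 to the domain centre was 489, 538, 392 and 543 bp over the width groups where Suz12 was in 1 domain, and 633, 995, 1306.5 and 2009 bp where it was shared. Suz12 itself was inner in 78.5% of the domains with an unshared site. It was inner in 7.52% of those with a shared site, where its centre lay past the edge in 167 (52.4%). A shared site has to run past the domain edge, so this split is in part set by the grouping. The Phf19 centre lay inside the Suz12 site in 94.4% of the domains with a shared site, so the Phf19 split is not independent of the grouping either. The same split of Suz12 positions was present without Phf19, at 57.1% and 4.55%.

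**Figure D2:**
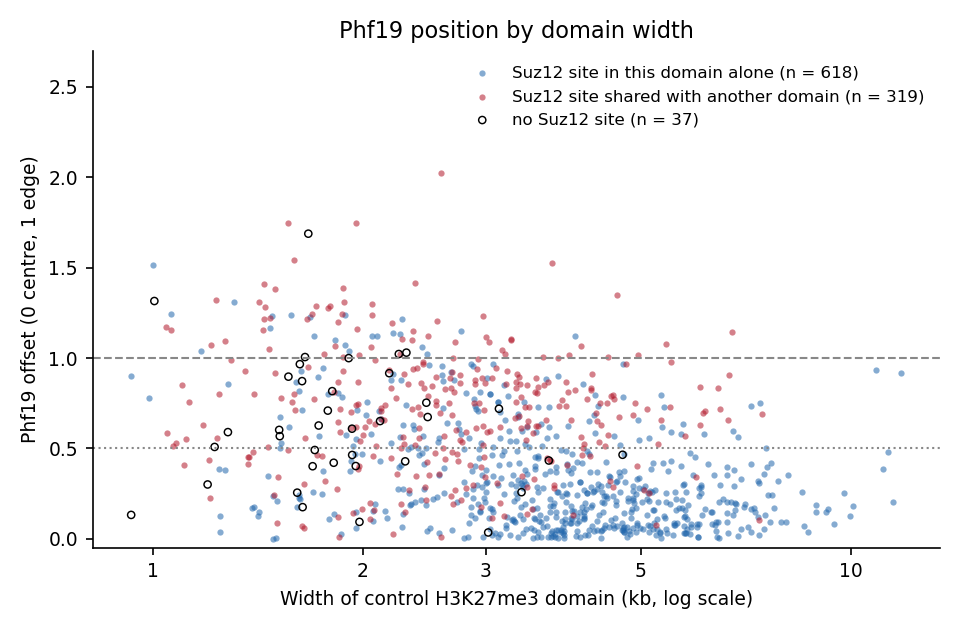
Relative offset of the Phf19 centre (0 at the domain centre, 1 at the edge) against domain width in kb on a log axis, 1 point per domain, coloured by whether the Suz12 site lies in 1 control domain alone (618), is shared with another (319) or is missing (37). Above about 3 kb the domains with their own Suz12 site gather under the dotted line at 0.5, and most with a shared Suz12 site stay above it.

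Most outer Phf19 sites, though not all, lay on the side of a neighbouring domain. A control domain within 2 kb was found next to 45.4% of all control domains. Among the 402 outer domains, 265 (65.9%) had one within 2 kb on the side where Phf19 lay and 46 (11.4%) on the other side. Among the 572 inner domains the shares were 23.6% and 10.7%. Of the outer domains with a neighbour on 1 side only, the neighbour was on the Phf19 side in 232 of 245 (94.7%, 91.1 to 97.1). For inner domains it was in 113 of 152 (74.3%, 66.6 to 81.1). Outer domains whose Phf19 site lay wholly inside, with no base in a neighbour, gave 101 of 112 (90.2%). In the 265 cases the gap to the neighbour was a median of 150 bp, with quartiles of 57 and 376 bp. The neighbour lay on the same Suz12 site in 239 of them (90.2%). Phf19 reached into the gap in 153 (57.7%), and its centre was in the gap in 31 (11.7%). The neighbour held no Phf19 site in 112 (42.3%), 1 in 74 (27.9%) and several in 79 (29.8%).

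Phf19 lay closer to the Suz12 centre than to the domain centre. The Phf19 and Suz12 centres were a median of 366 bp apart (quartiles 169 and 719 bp, largest 7711.5 bp). In the same 937 domains, Phf19 was a median of 618.5 bp and Suz12 a median of 673.5 bp from the domain centre. Phf19 was nearer to the Suz12 centre than to the domain centre in 593 (63.3%, 60.1 to 66.4). Both lay on the same side of the domain centre in 742 (79.2%, 76.4 to 81.7), where unrelated sides would give 50%. The Phf19 centre fell inside the Suz12 site in 868 (92.6%, 90.8 to 94.2), and the domain centre did so in 710 (75.8%, 72.9 to 78.5). The median Suz12 site was 2604 bp wide, so being inside it is a loose measure of distance. Phf19 and Suz12 remained close across domain widths, at medians of 469, 331, 329 and 402 bp from the narrowest to the widest group. Where the Suz12 site was shared with another domain, both factors were displaced to the same side in 92.2%, against 72.5% where it was not. Their median distance was then 518.5 bp against 319 bp. In the outer domains Phf19 was nearer to Suz12 in 81.6% (77.3 to 85.3), and in the inner domains, where little room separates the centres, in 50.8% (46.6 to 55.0).

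**Figure D3:**
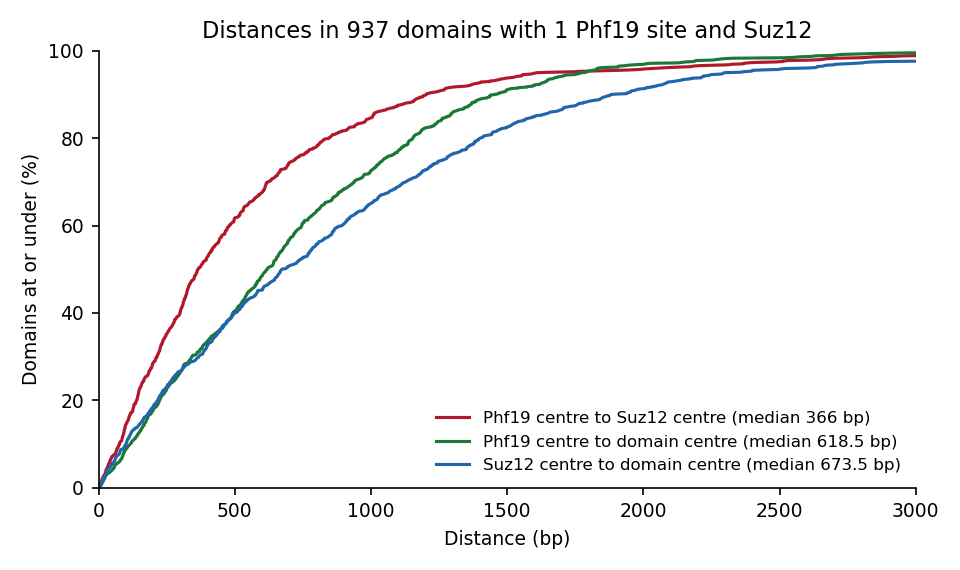
Cumulative share of the 937 domains with Suz12 (%) against distance in bp for Phf19 to Suz12, Phf19 to the domain centre and Suz12 to the domain centre. The curve for Phf19 to Suz12, with a median of 366 bp, lies to the left of the others, whose medians are 618.5 and 673.5 bp.

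In Phf19-depleted cells, 155 of the 974 domains were still overlapped by an H3K27me3 site (15.9%, 13.7 to 18.4) and 819 were not. Over all control domains the share still listed was 8.96%, and over those with Suz12 it was 11.3%. A site that just missed the caller's threshold is not listed, so an unlisted domain is not shown to lack the mark. By number of Phf19 sites, the share still listed was 15.9% for 1, 24.4% for 2, 47.3% for 3 and 78.9% for 4 or more. The median widths of these groups also climbed, at 3369, 4339, 6313 and 12184 bp. The share in domains with several sites was 42.0%, and domains with 1 site differed from it by −26.1 points (−30.2 to −22.0). The difference was −7.85 points (−12.9 to −4.28) once the groups were weighted to the same 10 width classes. They were still listed 11.9 points more often than domains with Suz12 and no Phf19 (3.97%; interval 9.68 to 14.4), and 7.69 points more often (5.26 to 10.5) once weighted. Among the 37 domains without Suz12, 0 were still listed, which allows a share of up to 9.49%.

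The difference from domains with several Phf19 sites varied with width. In the widest of the 10 classes, 5204 bp and above, 65 of 167 domains with 1 site were still listed (38.9%), 269 of 442 with several (60.9%) and 38 of 167 with Suz12 alone (22.8%). Domains with 1 site differed from those with several by −21.9 points (−30.3 to −13.1) and from those with Suz12 alone by 16.2 points (6.27 to 25.6). That class is open at the top. The median width in it was 6186 bp with 1 site, 8143 bp with several and 6126 bp with Suz12 alone, so the comparison with several is not at equal width and the comparison with Suz12 alone nearly is. In the class below, 3815 to 5203 bp, the corresponding differences were −9.55 points (−18.3 to −1.05) and 6.59 points (0.941 to 12.8). In the sixth class, 2175 to 2550 bp, the difference from domains with several was −21.7 points (−42.8 to −5.95), with 22 domains that held several. In the seventh and eighth classes the differences from domains with several were −0.174 points (−11.1 to 8.49) and 2.40 points (−7.89 to 11.0), intervals that include both directions.

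**Figure D4:**
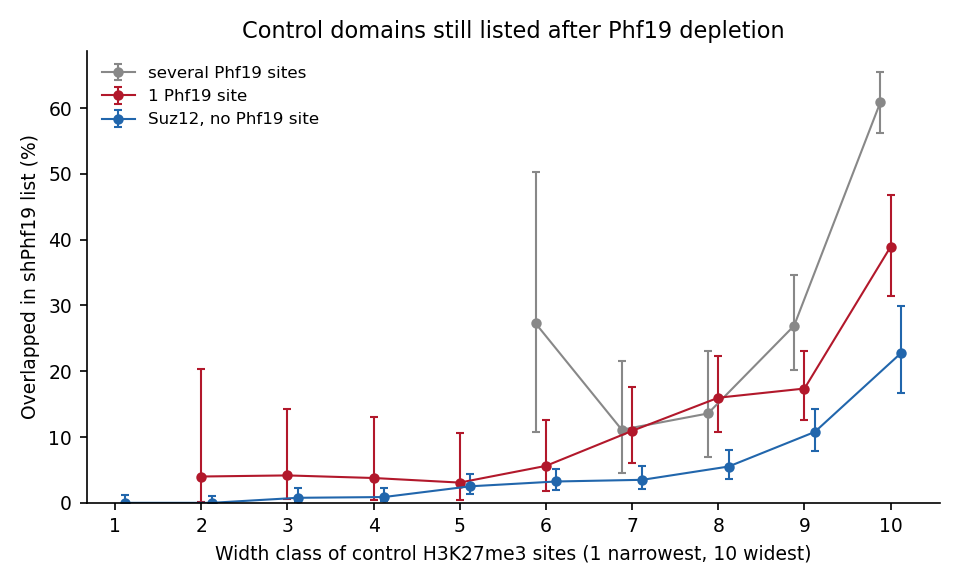
Share of control domains overlapped by a shPhf19 site (%) over 10 equal width classes of all control domains, for domains with 1 Phf19 site, several, or Suz12 and no Phf19; bars are exact 95% intervals and classes with fewer than 20 domains of a kind are left out. In the widest class the shares are 38.9%, 60.9% and 22.8%.

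The still listed domains were wider than the others (median 4575 against 3143 bp), and so were their Phf19 sites (717 against 508 bp) and Suz12 sites (3183 against 2538 bp). The distance between Phf19 and Suz12 was alike, at medians of 391.5 and 362.5 bp. From the narrowest to the widest of 4 equal groups of Phf19 sites, the share still listed was 8.71%, 12.7%, 16.7% and 25.4%, and the median domain width was 3023, 2997.5, 3349 and 4226.5 bp. Within the widest domain class, Phf19 sites at or above the class median differed from narrower ones by 4.59 points (−10.0 to 18.9), and in the class below by 6.41 points (−3.86 to 16.6). No relation beyond domain width was thus resolved in these classes. Narrower domain classes were not compared in this way.

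The position of Phf19 had no stable relation with the share still listed. Of the inner domains 96 of 572 were still listed (16.8%) and of the outer ones 59 of 402 (14.7%), a difference of 2.11 points (−2.63 to 6.64). The inner domains were wider, with a median of 3901 against 2609.5 bp. Weighted to the same width classes, the difference of inner from outer domains was −6.74 points (−12.3 to −1.36). Without weighting, the direction varied between choices. The difference was 11.0 points (4.74 to 15.8) in the 618 domains with a Suz12 site of their own, and 8.70 points (2.98 to 13.4) when control domains within 1 kb were merged first. It was −2.54 (−8.69 to 3.21) at or above the median control width and −0.582 (−7.21 to 5.15) with Phf19 wholly inside. It was −1.04 (−6.22 to 3.81) when Phf19 had to share 50% of the shorter site. Counting shPhf19 sites within 1 kb gave −1.57 (−6.64 to 3.32). The remaining choices gave 1.71 to 2.18 points, also with intervals that include both directions. The direction therefore depends on how width, neighbouring domains and overlap are treated. The gap was widest at 3815 to 5203 bp, where 18 of 163 inner domains and 19 of 50 outer ones (38.0%) were still listed, a difference with an interval of −41.4 to −13.5 points. Above that width the difference was 6.81 points (−12.7 to 23.2).

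Sharing of the Suz12 site followed the same lines. Domains with a shared Suz12 site were still listed in 60 of 319 cases (18.8%) and the others in 95 of 618 (15.4%), a difference of 3.44 points (−1.52 to 8.78). Weighted by width class it was 14.9 points (8.80 to 20.8). Over the 4 width groups the differences were 0.570, 13.0, 17.2 and 26.7 points, and in the widest group 16 of 29 domains with a shared site were still listed (55.2%) against 61 of 214 (28.5%). A domain with a shared Suz12 site belongs to a longer interrupted stretch. When control domains within 1 kb of each other were joined, the stretch had a median width of 5645 bp for domains with a shared site and 4162 bp for the others. In 4 groups of stretch width the differences were 2.87 points (−2.23 to 15.3), −2.49 (−10.5 to 8.12), −10.4 (−20.1 to 0.240) and 1.63 (−10.0 to 13.1), and each interval included 0. Domain width was not held in these groups: its medians were 1634, 2170, 2717 and 3537 bp with a shared site and 2487, 3914, 5218 and 6662 bp without, and the share still listed was 4.10% in the narrowest of the 4 width groups and 31.6% in the widest. In domains with Suz12 and no Phf19, the shared and unshared ones differed by −1.11 points (−2.28 to 0.208) before width was held. Over the 4 width groups they differed by 0.130 points (−0.740 to 1.15), 2.42 (−0.222 to 5.79), 9.76 (1.98 to 21.0) and −5.40 (−15.8 to 18.5), so the third group also differed without Phf19. Whether the differences were larger in domains with Phf19 was not tested.

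Neighbouring domains were not always listed together. Of the 265 outer domains with a neighbour on the Phf19 side, both domains were still listed in 13, the domain with the Phf19 site alone in 38 and the neighbour alone in 34.

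What remained listed was a short stretch inside the old domain. Of the 155 still listed domains, 145 contained 1 shPhf19 site, 9 contained 2 and 1 contained 3. The shPhf19 site was a median of 1376 bp wide (quartiles 1172.5 and 1676 bp) and reached past the control domain in 4 cases (2.58%). It covered a median of 33.6% of the domain's length, with quartiles of 22.6% and 43.7%. The median covered length was 28.4% in still listed domains with several Phf19 sites and 38.9% in those with Suz12 and no Phf19. The shPhf19 centre was inner in 124 of 155 (80.0%).

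The remaining site overlapped the Phf19 site in 118 of 155 (76.1%, 68.6 to 82.6). It covered the Phf19 centre in 71 (45.8%, 37.8 to 54.0), the Suz12 centre in 61 (39.4%, 31.6 to 47.5) and the domain centre in 90 (58.1%, 49.9 to 65.9). A point placed evenly along the domains would be covered in 35.7%, the mean covered length. The point at the same distance from the domain centre on the opposite side from Phf19 takes account of the central place of both. It was covered in 51 (32.9%). In 58 domains only the Phf19 centre or its mirror point was covered, and it was the Phf19 centre in 39 of them (67.2%, 53.7 to 79.0). The shPhf19 centre lay on the Phf19 side of the domain centre in 106 of 155 (68.4%). Its median distance was 582.5 bp to the domain centre, 781.5 bp to Phf19 and 866 bp to Suz12. In the 37 domains where the shPhf19 and Phf19 sites did not meet, the space between them was a median of 238 bp (2 to 1470 bp).

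In the 96 inner domains the remaining site covered the Phf19 centre in 55.2% and its mirror point in 47.9%. In the 59 outer domains it covered the Phf19 centre in 18 (30.5%), the mirror point in 5 (8.47%) and the domain centre in 37 (62.7%). There the mean covered length was 39.3%, and the shPhf19 centre was on the Phf19 side in 49 of 59 (83.1%). The difference between inner and outer domains in these shares was not tested.

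Named domains show the range of these arrangements, in mm9 coordinates. The widest still listed was on chromosome 15 from 98601125 to 98612631. Its Phf19 site of 2668 bp lay at an offset of 0.201, and 2 shPhf19 sites covered 25.9% of its length. The next widest still listed, on chromosome 2 from 94077601 to 94088715, retained 12.8% as a single 1422 bp site that covered the Phf19 centre. On chromosome 3, from 88015265 to 88024714, a 2330 bp site remained (24.7%) that overlapped the Phf19 site without covering its centre. It began at 88019623, just past the centre of the Phf19 site from 88018426 to 88020793. The domains on chromosome 15 from 97829349 to 97838623 and on chromosome 11 from 96060207 to 96069420 retained 36.8% and 15.7%, both over the Phf19 centre. Each of these 5 held a Phf19 site at least 1414 bp wide at an offset of 0.388 or less.

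The 5 widest domains no longer listed had narrower Phf19 sites, of 335 to 667 bp. Such a contrast was not resolved over the widest of the 10 width classes. There 35 of 85 domains with Phf19 sites at or above the class median width were still listed, and 30 of 82 with narrower ones. The widest member of all, on chromosome 7 from 77484245 to 77496053, had its 387 bp Phf19 site at an offset of 0.919, facing a control domain 82 bp away. This Phf19 site was 3358 bp from the centre of the Suz12 site with the largest overlap. It lay inside another Suz12 site, which ran past the domain edge. On chromosome 10, from 126960767 to 126971639, Phf19 lay at 0.933 and 7711.5 bp from the Suz12 site with the largest overlap, the longest such distance found. On chromosome 8 the domain from 72402913 to 72414207 was almost filled by a Suz12 site of 10372 bp, with Phf19 at 0.482. The domain from 111217654 to 111227715 on the same chromosome and that from 33464480 to 33474445 on chromosome 2 had Phf19 near the centre, at 0.181 and 0.128, and were not listed either.

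At the other extreme, the 3 narrowest still listed domains had most of their length covered. That on chromosome 2 from 163743164 to 163744561 kept 71.4%, that on chromosome 1 from 9956195 to 9957721 kept 83.7%, and that on chromosome 14 from 31165043 to 31166652 kept 86.6%. Their shPhf19 sites were 998, 1277 and 1394 bp wide in that order, against a median of 1459.5 bp over the whole shPhf19 list. A site of such width fills more of a narrow domain. The largest covered share, 96.3%, was on chromosome 5 from 26331768 to 26339349, where 1 shPhf19 site of 8538 bp ran past the domain edge. Its Phf19 site was only 348 bp wide. This was the widest shPhf19 site among the still listed domains.

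Among domains of at least the median width, Phf19 was most central on chromosome 14 from 122803483 to 122808836 (6 bp from the domain centre), on chromosome 9 from 8542592 to 8546402 (5.5 bp) and on chromosome 16 from 85899330 to 85903218 (9 bp). In these the Suz12 centre was 228, 66 and 531.5 bp from Phf19, and none was still listed. The largest offsets belonged to Phf19 sites that reached over an edge: 1.12 on chromosome 12 from 99813456 to 99817476, 1.35 on the same chromosome from 81615340 to 81619969, and 1.52 on chromosome 19 from 43691155 to 43694889. Neighbouring control domains lay 309, 63 and 134 bp away on the Phf19 side. The second of these was still listed, over 44.2% of its length, with the shPhf19 centre 2544.5 bp from the Phf19 centre. The widest domains without Suz12 were on chromosome 19 from 37956250 to 37960959, on chromosome 6 from 29641858 to 29645550 and on chromosome 7 from 19546483 to 19549857. Phf19 lay at offsets of 0.465, 0.433 and 0.258 in them, and none was still listed.

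**Figure D5:**
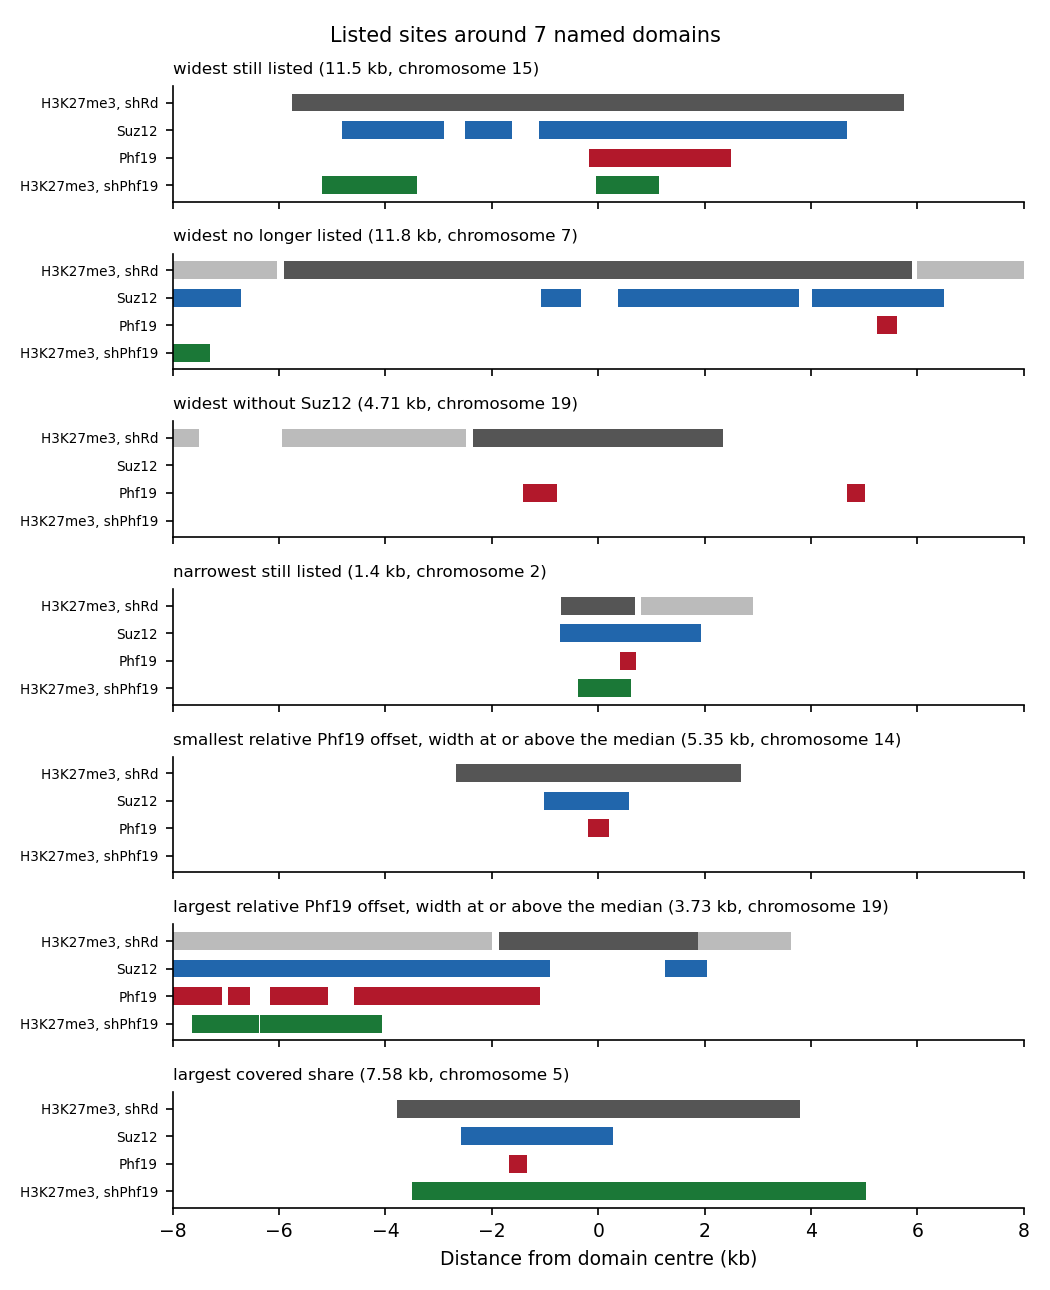
Listed sites of H3K27me3 (shRd), Suz12, Phf19 and H3K27me3 (shPhf19) around 7 named domains, drawn to scale against the distance from the domain centre in kb; the dark bar is the domain itself and pale bars are other control domains. The shPhf19 sites that overlap these domains lie inside them, except on chromosome 5, where 96.3% of the length is covered.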

How the data were processed

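The deposited files are 4 lists of site positions (chromosome, start, end) made by the authors, with no score; a Phf19 site was kept when found in both replicates, per the series' design text. Bowtie 0.12.7, MACS 1.4.1 and mm9 appear in the submitters' processing notes, without roles. Threshold and control library: not given in the sources used here. No mm9 annotation was used here, so no gene is named, and the counting base of the starts is unknown. The domains, lists and comparisons were chosen with earlier results of these data known.

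Overlap meant at least 1 shared base; 24840 of 24840 per-domain counts equalled those of bedtools 2.31.1. Centres are site midpoints. Weighted differences used the width distribution of the 974 domains over 10 equal classes of all control domains. Shares carry exact Clopper-Pearson 95% intervals and differences Newcombe intervals, which cover counting error only and treat sites as independent, although neighbours are not. Widths give medians. With 1 library per condition no p-value is given, and no spread between replicates could be measured.

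By rule the text names the 5 widest domains still listed, the 5 widest no longer listed, the 3 widest without Suz12, the 3 narrowest still listed, the 3 smallest and 3 largest offsets at or above the median width, and the 3 largest covered shares; sites on chromosome 18 were passed over. Alternatives concerned overlap, chromosomes, merging, width, the choice of Suz12 site and the definition of still listed. Sharing of Suz12 sites, neighbours, stretches and the restriction to Phf19 sites wholly inside were added after the data were seen. The steps were tested on simulated lists. The H3K36me3, H3K36me2 and IgG samples were not analysed here. Software was scipy 1.17.1, pandas 2.3.3, numpy 2.4.6 and matplotlib 3.10.9 under Python 3.11.15.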

Additional observations from a re-analysis of the deposited data

How the results depend on the processing

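Of 105 alternatives, 72 left the value or its direction and side of 0 unchanged, 23 moved a share or median, 4 kept the direction of a difference with an interval that now excluded 0, and 6 turned its sign; the cause was not tested. Merging control domains within 1 kb left 795 domains and gave inner shares of 75.8% for Phf19 and 77.5% for Suz12. The same side was found in 72.2%, Phf19 nearer to Suz12 in 59.3%, and a covered length of 25.8%. A neighbour lay on the Phf19 side in 80.6% of only 31 outer domains with a neighbour on 1 side. Inner minus outer still listed was 8.70 points (2.98 to 13.4). Shared minus unshared Suz12 was −8.54 (−15.2 to 9.16), with only 24 shared domains. At or above the median control width the inner shares were 65.1% and 63.2%, Suz12 overlap 98.6%, still listed 19.3%, inner minus outer −2.54 and shared minus unshared 9.32. Counting Phf19 only with 50% of the shorter site shared gave 63.7% inner, 60.0% nearer to Suz12 and inner minus outer −1.04. With Suz12 in 1 domain alone, the inner shares were 76.7% and 78.5%, the same side 72.5%, inner minus outer 11.0 and the covered length 29.6%. With Phf19 wholly inside, they were 74.9% for Phf19 and 66.9% for Suz12, the same side 75.1%, nearer to Suz12 56.9%, inner minus outer −0.582 and the neighbour share 90.2%. Phf19 sites of at most 25% of the domain were inner in 63.1%. Counting shPhf19 sites within 1 kb gave 18.5% still listed and inner minus outer −1.57. Weighting by width gave −6.74 for inner minus outer and 14.9 for shared minus unshared.

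The differences in the share still listed from domains with several Phf19 sites and from those with Suz12 alone kept their direction in every alternative run. Leaving out a Phf19 replicate was not run, since the list holds the sites common to both. No paired analysis was possible because each H3K27me3 list comes from 1 library. Unknown depth limits all comparisons of the lists.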

Other observations

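The domains were spread over all autosomes and the X chromosome. Their share of the control domains of a chromosome ran from 7.20% on chromosome 14 (26 of 361) to 14.6% on chromosome 18. On the X chromosome 12 of 124 control domains had exactly 1 Phf19 site and 0 of the 12 were still listed, which allows a share of up to 26.5%. On chromosome 15, 12 of 46 were still listed (26.1%, 14.3 to 41.1). Over all 974 domains the share was 15.9%, and over all control domains 8.96%. None of the 9 control domains on chromosome Y had a single Phf19 site. These chromosomes were chosen after their values were seen, and differences between chromosomes were not tested.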
